A study of Mus musculus with 6 samples.

Results

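Blood and lymphatic vessels are lined by endothelial cells, and 34 genes used or best known in these cells were followed in mammary tumors and normal mammary glands. The members were taken by name and not by a threshold on any value, but with earlier results of these data known. Counts of them are therefore descriptions, and the list as a whole was not tested. All 34 were represented on the arrays, of 18193 genes with a probe set of 1 gene symbol. Each gene was read from its brightest probe set (by mean log2 signal over the 6 arrays), and 31 of the 34 genes reached the signal needed for a test, at least 100 on at least 3 arrays. The tumors were 3 mammary tumors with acinar histology from *K14-cre*; *ApcCKO/+* mice, in which Cre recombinase under the keratin 14 promoter, an epithelial promoter, deletes 1 copy of *Apc*. In these 3 tumors 1 *Apc* allele was the Cre-deleted one and the other was truncated by a further mutation. Tumors of this model mix several histological patterns, and the acinar one was seen in mice of mixed genetic background (C57BL/6, 129/S and FVB). The controls were 3 mammary glands of age-matched *cre*-negative mice, whose *Apc* genotype and age are not given in the sources used here. Whole tissue was extracted, with 1 array per sample, and nothing says whether each sample came from a separate animal. The p-values then measure the spread between these samples.

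Endothelial cells are held together by VE-cadherin and PECAM-1, and they read growth and quiescence signals through receptors such as Tie2, endoglin and Alk1. Caveolae and diaphragms carry solutes through the thin wall of capillaries, and stored von Willebrand factor and P-selectin are released when a vessel is injured or inflamed. Lymphatic vessels are specified by the transcription factor Prox1 and carry the hyaluronan receptor Lyve1. In the mammary gland a dense capillary net runs through the fat pad and around the ducts.

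In the acinar tumors 26 of the 31 endothelial genes tested were lower than in control glands at an adjusted p under 0.05 (limma, Benjamini-Hochberg adjustment over all 12518 genes tested), and the other 5 did not pass the test. Over all genes tested, 16.8% were lower in tumors and 16.3% were higher by the same rule. None of the 31 was higher in tumors, also at an unadjusted p under 0.05 and in the methods' t-test, and every one had a negative log2 fold change. The median log2 fold change was −1.94, a 3.83-fold lower signal, against a median of 0.07 for all genes tested. Of the 26 lower genes, 24 were at least 2-fold and 15 at least 4-fold lower. For 28 of the 31 genes every tumor lay below every control gland, where 23.1% of all genes did so and 27.1% did the opposite. As the arrays measured whole tissue, fewer endothelial cells and less RNA per endothelial cell cannot be told apart. Of the 31, *Vwf* and *Selp* reached the filter through the control glands alone and so could only have been lower. Without control replicate 3 the count was 15 lower of 29 tested, where 1151 of all 11897 genes tested were lower. With no filter on low signals it was 15 of 34, where 1564 of all 18193 genes tested were lower. The methods' t-test after Benjamini-Hochberg adjustment left 2 of 31, where 73 of all 12518 genes tested were lower.

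**Figure D1:**
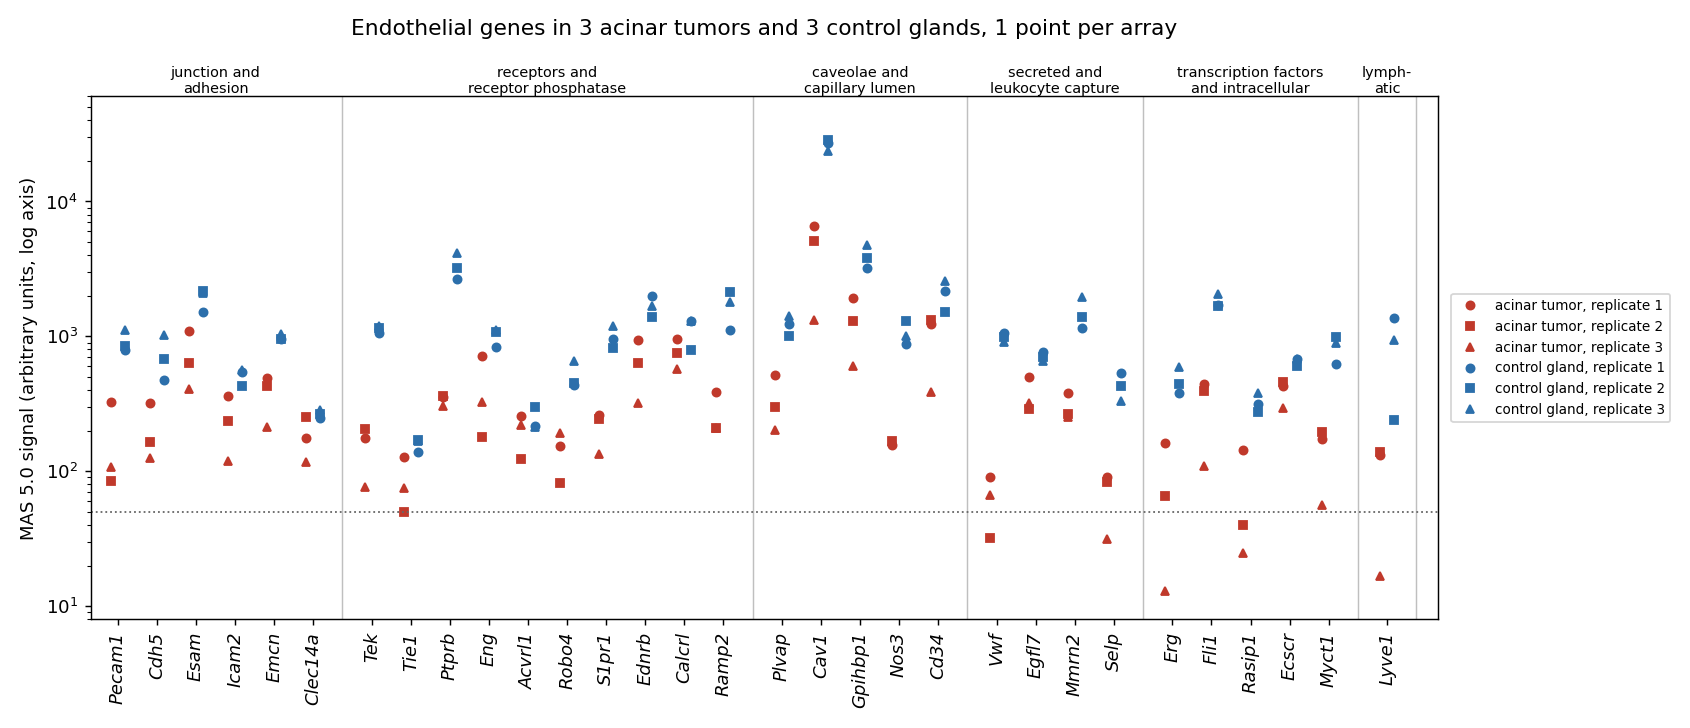
MAS 5.0 signal (arbitrary units, log axis) of the 31 endothelial genes tested, grouped by role, with 1 point per array, acinar tumors in red to the left of control glands in blue. For 28 genes the 3 tumors lie below the 3 control glands; the dotted line marks the signal of 50 to which lower values were raised before log2 was taken, and heights cannot be compared between genes because each probe set has its own brightness.

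The ETS factors *Erg* and *Fli1* maintain the endothelial gene program, and *Fli1* is also used by blood cells. *Fli1* had signals of 447, 393 and 109.5 in tumors, against 1702, 1686 and 2047 in control glands (log2 fold change −2.75, standard error 0.52, adjusted p = 0.00703). *Erg* had 163, 65.2 and 12.9 in tumors, against 384, 442 and 591 in control glands (log2 fold change −2.52, standard error 0.44, adjusted p = 0.0055). Both factors were lower in every tumor than in any control gland, and tumor replicate 3 was the lowest for both, below the floor of 50 for *Erg*. *Myct1*, an endothelial membrane protein, had 174, 196 and 56 in tumors, against 628, 982 and 900.4 in control glands (log2 fold change −2.73, standard error 0.48, adjusted p = 0.0057), and its other 2 probe sets tested were also called lower. The signal of *Rasip1*, which vessels need to form a lumen, averaged 69.9 ± 65.1 in tumors, against 324 ± 51 in control glands (SD, n = 3 each), and 2 tumors were below 50 (log2 fold change −2.17, standard error 0.43, adjusted p = 0.00854). *Ecscr*, a surface protein of endothelial migration, changed least in this role, with 393 ± 88.5 in tumors, against 656 ± 43.9 in control glands (SD, n = 3 each; log2 fold change −0.76, standard error 0.24, adjusted p = 0.0448). Its call was lost whichever 1 of the 6 arrays was left out (adjusted p from 0.0374 to 0.131 over the alternatives).

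The stretches just before the start sites of 5 members are shown with ETS-type letters marked. Of other ETS genes in the lists read below, *Ehf* was higher, at 3.55 (adjusted p = 0.0052), and so was *Ets2*, at 0.86 (adjusted p = 0.0374). *Ets1*, *Elk3*, *Etv2* and *Elf3* did not pass, at −1.46, −0.97, 0.18 and 0.06 (adjusted p from 0.0525 to 0.876). Whether any of these factors acts on the members was not tested. RefSeq promoter windows (GRCm38.p6, 250 bases before to 50 after each start) were at hand for 18 of the 34 genes, in 24 windows. The letters AGGAAG, which hold the shorter ETS core GGAA, were sought on either strand (CTTCCT on the other, overlapping matches counted). GGAA with other flanking letters was not counted. Matches were present in 14 of these 24 windows (58.3%) and in 35.4% of all 32851 windows. At least 2 matches were in 6 member windows (25.0%), against 8.62% of all. The GATA letters AGATAA, read as TTATCT on the other strand, were in 3 of the 24 windows (12.5%) and 11.2% of all, and a match of one motif can overlap a match of the other by the letters AG. A match describes letters and not a bound site, and members were not tested against other genes for it. Below are the 180 bases before the start on the gene's own strand, the + strand in each case, with AGGAAG and CTTCCT in capitals. They are from *Eng* (chr2:32646415-32646594), *Emcn* (chr3:137340898-137341077), *Robo4* (chr9:37401792-37401971), *Rasip1* (chr7:45627357-45627536) and *Tek* (chr4:94739109-94739288). The first 4 were lower in tumors and hold 1 or 2 matches. *Tek*, which fell more than any of them, has no AGGAAG or CTTCCT in its whole window. The *Tek* bases shown do hold TTCC, the core GGAA read on the other strand. Of the members not shown here, *Cd34*, *Tie1* and *Calcrl*, which did not pass, also hold matches in their windows, as does the untested *Sele*. *Clec14a*, which did not pass, and *Ednrb*, which was lower, hold none.
Eng: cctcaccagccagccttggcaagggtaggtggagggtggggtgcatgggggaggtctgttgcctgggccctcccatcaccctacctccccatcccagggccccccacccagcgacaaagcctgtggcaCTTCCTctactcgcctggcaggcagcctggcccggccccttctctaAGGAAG
Emcn: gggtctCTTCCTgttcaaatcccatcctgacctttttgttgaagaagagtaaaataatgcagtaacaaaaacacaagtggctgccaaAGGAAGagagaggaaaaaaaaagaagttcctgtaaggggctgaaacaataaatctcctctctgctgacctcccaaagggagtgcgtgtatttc
Robo4: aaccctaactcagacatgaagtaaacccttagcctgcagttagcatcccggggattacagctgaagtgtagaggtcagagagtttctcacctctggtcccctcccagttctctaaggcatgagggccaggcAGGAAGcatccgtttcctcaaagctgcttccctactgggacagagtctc
Rasip1: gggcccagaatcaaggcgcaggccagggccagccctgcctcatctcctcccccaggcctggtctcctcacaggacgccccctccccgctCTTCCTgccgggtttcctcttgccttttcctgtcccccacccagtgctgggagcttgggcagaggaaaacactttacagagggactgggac
Tek: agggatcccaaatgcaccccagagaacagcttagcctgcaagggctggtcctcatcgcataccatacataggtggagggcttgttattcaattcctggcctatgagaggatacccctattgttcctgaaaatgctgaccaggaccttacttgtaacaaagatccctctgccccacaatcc

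Genes of endothelial junctions and adhesion were lower in tumors in 5 of 6 cases. *Pecam1*, the homophilic adhesion molecule of endothelial borders that platelets and some leukocytes carry too, had signals of 325, 84.4 and 107 in tumors, against 797, 849 and 1114 in control glands (log2 fold change −2.67, standard error 0.49, adjusted p = 0.00652). *Cdh5*, which encodes VE-cadherin, the adhesive core of the endothelial junction, had 322, 164 and 126 in tumors, against 473, 681 and 1026 in control glands (log2 fold change −1.87, standard error 0.42, adjusted p = 0.0142). *Esam*, a tight junction adhesion molecule, had 1105, 631 and 407 in tumors, against 1527, 2187 and 2094 in control glands (log2 fold change −1.54, standard error 0.38, adjusted p = 0.0192). In all 3 genes the groups did not overlap, and tumor replicate 1 was the highest tumor. *Emcn*, a sialomucin of capillary and venous endothelium, averaged 378 ± 148 in tumors, against 986 ± 49.7 in control glands (SD, n = 3 each; log2 fold change −1.47, standard error 0.33, adjusted p = 0.0147). *Icam2*, a ligand for leukocyte integrins, stood at the threshold, at −1.23 (adjusted p = 0.0499), with 239 ± 122 in tumors, against 511 ± 69.3 in control glands (SD, n = 3 each). *Clec14a*, a lectin of vessel sprouting, had 177, 252 and 117 in tumors, against 250.1, 265 and 287 in control glands. Its groups overlapped in tumor replicate 2, and its log2 fold change was −0.62 (adjusted p = 0.151) with a 95% interval of −1.33 to 0.08.

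Of 10 receptor genes, including a receptor phosphatase, 7 were lower in tumors. *Ptprb* and *Tek*, both of the Tie2 pathway, had the lowest log2 fold changes among them. *Ptprb*, which encodes the endothelial phosphatase VE-PTP that dephosphorylates Tie2, had signals of 354, 361 and 305 in tumors, against 2669, 3226 and 4186 in control glands, a 9.74-fold lower signal (log2 fold change −3.28, standard error 0.24, adjusted p = 0.000187). *Tek*, which encodes Tie2, the receptor of the angiopoietins, had 178, 205 and 76.3 in tumors, against 1055, 1153 and 1197 in control glands, an 8.06-fold lower signal (log2 fold change −3.01, standard error 0.38, adjusted p = 0.00152). The 3 tumors of *Ptprb* lay close together, and those of *Tek* spread from 76.3 in replicate 3 to 205 in replicate 2. *Tie1*, the orphan partner of Tie2, had 128, 49.9 and 75.4 in tumors, against 139, 171 and 168 in control glands. Every tumor of *Tie1* was below every control gland, but its control signals were within 2-fold of the filter of 100 and its log2 fold change of −1.02 did not pass (adjusted p = 0.0594, 95% interval −1.83 to −0.20). It passed without tumor replicate 1, the highest of the 3 (range of its adjusted p 0.0143 to 0.194).

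Endoglin and Alk1 form the receptor for BMP9 on endothelium and gave unlike values. *Eng*, which encodes endoglin, averaged 406 ± 275 in tumors, against 1012 ± 158 in control glands (SD, n = 3 each; log2 fold change −1.53, standard error 0.47, adjusted p = 0.042), and its second probe set was also lower, at −1.59 (adjusted p = 0.00236) in a fit over all named probe sets, which gives all values of further probe sets here. *Acvrl1*, which encodes Alk1, had 257, 124 and 220.1 in tumors, against 216, 299 and 214 in control glands, with overlapping groups and a log2 fold change of −0.33 (adjusted p = 0.469), 95% interval −1.08 to 0.42. Another probe set of *Acvrl1*, with lower mean signal, was called 2.01-fold lower (adjusted p = 0.0339), so the 2 probe sets of this gene differ in call and not in sign. That difference between probe sets was not tested.

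*Robo4*, a guidance receptor that stabilizes vessels, had 154, 81.7 and 193 in tumors, against 435, 453 and 656 in control glands (log2 fold change −1.91, standard error 0.36, adjusted p = 0.007). *S1pr1*, the sphingosine 1-phosphate receptor that keeps vessels tight and that lymphocytes also use, averaged 214 ± 68.8 in tumors, against 990.0 ± 188 in control glands (SD, n = 3 each; log2 fold change −2.25, standard error 0.31, adjusted p = 0.00217). *Ednrb*, an endothelin receptor of endothelium and of cells from the neural crest, averaged 637 ± 312 in tumors, against 1695 ± 300.1 in control glands (SD, n = 3 each; log2 fold change −1.53, standard error 0.40, adjusted p = 0.0233), while its other 2 probe sets had −0.83 (adjusted p = 0.189) and −1.47 (adjusted p = 0.0661). The adrenomedullin receptor is made of *Calcrl* and its helper *Ramp2*, which also differed in size of change. *Ramp2* had 384, 208 and 209.8 in tumors, against 1119, 2149.5 and 1786 in control glands (log2 fold change −2.67, standard error 0.35, adjusted p = 0.00178). *Calcrl* had 955, 759.6 and 571 in tumors, against 1311, 794 and 1297 in control glands, groups that overlapped in tumor replicate 1 and control replicate 2, and a log2 fold change of −0.57 (adjusted p = 0.182) with a 95% interval of −1.27 to 0.13.

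**Figure D2:**
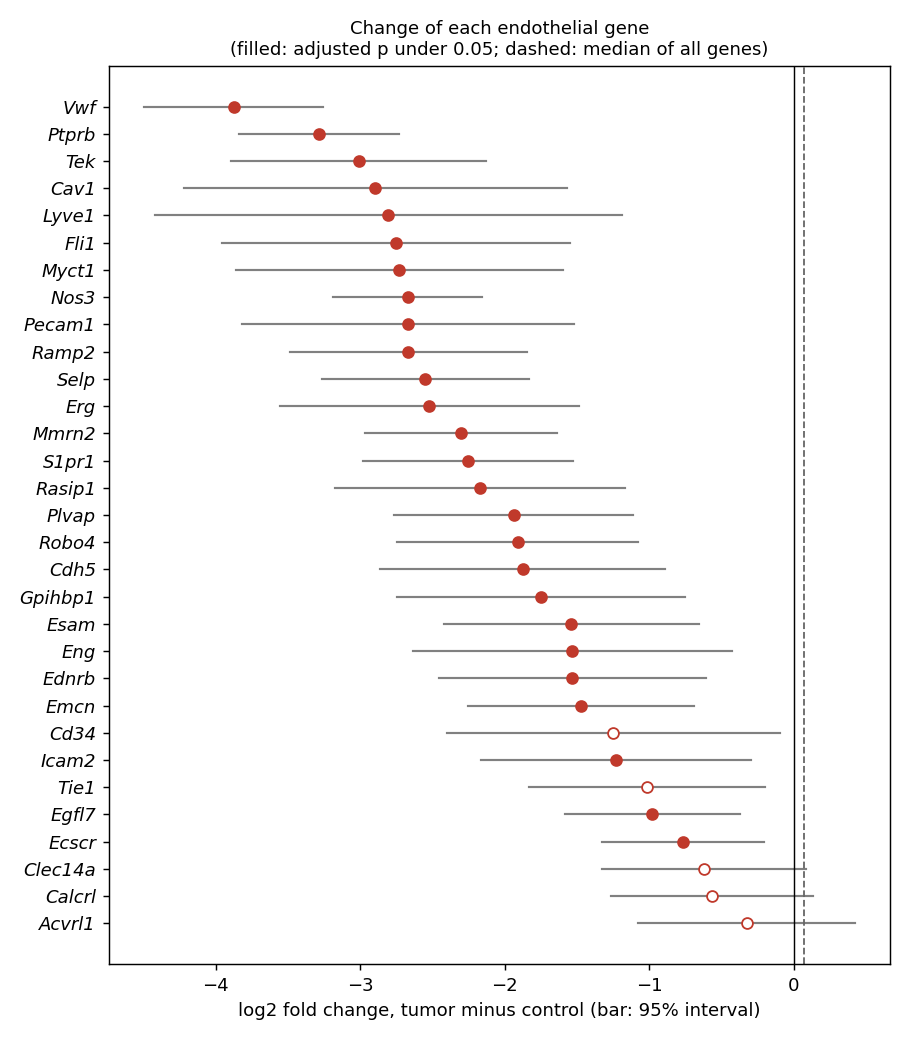
Each of the 31 endothelial genes is drawn at its log2 fold change, tumor minus control, with the 95% interval of limma as a bar; filled points have an adjusted p under 0.05. All points lie below 0, from *Vwf* at −3.88 to *Acvrl1* at −0.33, and the 5 open points are *Cd34*, *Tie1*, *Clec14a*, *Calcrl* and *Acvrl1*; the dashed line is the median of all genes tested, 0.07.

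Genes of caveolae and the capillary lumen were lower in tumors in 4 of 5 cases. *Cav1*, the coat protein of caveolae in endothelium and in adipocytes, had signals of 6582, 5135 and 1313 in tumors, against 26982, 28732 and 23528 in control glands (log2 fold change −2.89, standard error 0.57, adjusted p = 0.00825). Tumor replicate 3 was far below the other 2 tumors for this gene. *Nos3*, the endothelial nitric oxide synthase, had 158, 168 and 166 in tumors, against 876, 1293 and 1000.1 in control glands (log2 fold change −2.67, standard error 0.22, adjusted p = 0.000322), and its 3 tumors were nearly equal. *Plvap*, which forms the diaphragms of capillary fenestrae, averaged 339 ± 159 in tumors, against 1219 ± 198 in control glands (SD, n = 3 each; log2 fold change −1.94, standard error 0.35, adjusted p = 0.00638). *Gpihbp1*, which carries lipoprotein lipase to the lumen of capillaries in fat and muscle, averaged 1279 ± 669 in tumors, against 3909 ± 772 in control glands (SD, n = 3 each; log2 fold change −1.75, standard error 0.43, adjusted p = 0.0189). On the same arrays *Lpl*, the lipase itself, which adipocytes make, had 3429.5, 2874 and 2003 in tumors, against 44829, 33166 and 29199 in control glands (log2 fold change −3.70, standard error 0.28, adjusted p = 0.000231). *Cd34*, a sialomucin of capillaries that stromal progenitors of the fat pad also carry, had 1236, 1331 and 388 in tumors, against 2183, 1511 and 2589.5 in control glands. Every tumor was below every control gland, but tumor replicates 1 and 2 came close to control replicate 2, and the log2 fold change of −1.25 did not pass (adjusted p = 0.0894, 95% interval −2.40 to −0.10).

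Among secreted and granule proteins, *Vwf* had the lowest log2 fold change of all members. It encodes von Willebrand factor, which captures platelets and is stored in endothelial granules and in platelets. Its signals were 91.4, 32.3 and 66.3 in tumors, against 1064, 986 and 913 in control glands, a 14.7-fold lower signal (log2 fold change −3.88, standard error 0.26, adjusted p = 0.000175). Its tumor signals were all under 100, so that the fold moved with the treatment of low signals, to 9.36-fold with log2 of the signal plus 50, 9.86-fold with a floor of 100 and 17.0-fold with a floor of 16. Only 1.09% of all genes tested had a lower log2 fold change, and 1 tumor was below 50. *Selp*, the P-selectin stored in the same granules and in platelets, averaged 68.3 ± 32 in tumors, against 430.3 ± 102 in control glands (SD, n = 3 each; log2 fold change −2.55, standard error 0.31, adjusted p = 0.00128). *Mmrn2*, a matrix protein that binds Clec14a, averaged 301 ± 71.5 in tumors, against 1502 ± 421 in control glands (SD, n = 3 each; log2 fold change −2.31, standard error 0.28, adjusted p = 0.00143), and all 4 of its probe sets were lower. *Egfl7*, a secreted guide of vessel tubes, averaged 369 ± 113 in tumors, against 708 ± 50.9 in control glands (SD, n = 3 each; log2 fold change −0.98, standard error 0.26, adjusted p = 0.0249). All 4 of its probe sets were lower in the fit over probe sets, with log2 fold changes between −0.98 (adjusted p = 0.0288) for the one used and −1.99 (adjusted p = 0.00191). The probe set used for *Egfl7* may cross-hybridize, as its name marks. *Sele*, the E-selectin made by inflamed endothelium, did not reach the filter. It had 49.0, 14.0 and 12.1 in tumors, against 101, 35.7 and 6 in control glands, and no direction was read from it.

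Lymphatic genes could be followed in part. *Lyve1*, the hyaluronan receptor of lymphatic endothelium that some tissue macrophages also carry, had signals of 132, 139 and 16.8 in tumors, against 1379, 240.0 and 945 in control glands (log2 fold change −2.80, standard error 0.69, adjusted p = 0.0196). Control replicate 2 was well below the other 2 control glands and still above every tumor, and the second probe set gave the same picture, at −2.98 (adjusted p = 0.0122). The call of *Lyve1* was lost without tumor replicate 3, control replicate 1 or control replicate 3 (range of the adjusted p 0.00599 to 0.29). *Prox1*, which sets lymphatic identity, had 3 probe sets, none of which reached a signal of 100 on any array. The brightest of them had 28.6, 71.4 and 47.2 in tumors, against 17.6, 23.5 and 26.5 in control glands. *Mmrn1*, a multimerin of lymphatic endothelium and platelets, had 84.1, 67.6 and 64.5 in tumors, against 171, 92.7 and 201 in control glands, above 100 in 2 control glands only. Neither *Prox1* nor *Mmrn1* was tested under the main filter, and with no filter the log2 fold change was 0.17 for *Prox1* (adjusted p = 0.55) and −1.04 for *Mmrn1* (adjusted p = 0.109). *Lyve1* was thus the one member of the lymphatic role that was tested. Of 8 further lymphatic genes tested, 3 were lower and 5 did not pass, with a median of −0.72. Lower were *Sox18*, a factor of lymphatic and blood vessel growth, at −2.68 (adjusted p = 0.0103), the semaphorin and VEGF-C receptor *Nrp2*, at −2.38 (adjusted p = 0.00382), and the scavenger receptor *Stab1*, which macrophages share, at −1.35 (adjusted p = 0.0233). *Pdpn*, which encodes podoplanin and is also made by epithelium and fibroblasts, had 2028, 1063 and 747 in tumors, against 829, 749.7 and 651 in control glands and did not pass, at 0.66 (adjusted p = 0.203), and *Itga9*, an integrin of lymphatic valves, had −0.25 (adjusted p = 0.638).

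The 31 genes did not all differ by the same amount. On each array the level of a gene was set against the median log2 signal of 6 pan-endothelial genes, *Pecam1*, *Cdh5*, *Tek*, *Tie1*, *Esam* and *Robo4*, which are themselves members. The change in this relative level, tumor minus control, ran from −1.46 for *Vwf* to 2.09 for *Acvrl1* on the log2 scale, as a description with no test. *Vwf* relative to these genes was −1.39, −1.24 and −0.81 in tumors and 0.79, 0.38 and −0.23 in control glands, and *Ptprb* was 0.56, 1.62 and 1.39 in tumors and 2.12, 2.08 and 1.97 in control glands. These were the only members whose relative level was lower in every tumor than in every control gland. In 11 members it was higher in every tumor, and in 18 the groups overlapped. These counts depend on the reference, whose median log2 signal was 7.90, 6.88 and 6.86 in tumors, against 9.26, 9.57 and 10.06 in control glands. The same value is taken off every member of an array. The order of the members is therefore that of their log2 fold changes. The reference genes themselves ran from −0.59 for *Tek* to 1.40 for *Tie1* in relative change. The 11 were *Acvrl1*, *Calcrl*, *Clec14a*, *Ecscr*, *Egfl7*, *Tie1*, *Icam2*, *Emcn*, *Eng*, *Esam* and *Cdh5*. For *Calcrl* the relative level was 2.00, 2.69 and 2.30 in tumors, against 1.10, 0.06 and 0.28 in control glands. Among these 11, *Tie1* had control signals of only 139 to 171, *Clec14a* of 250.1 to 287 and *Acvrl1* of 214 to 299, and the part of low signal in their small differences was not tested.

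**Figure D3:**
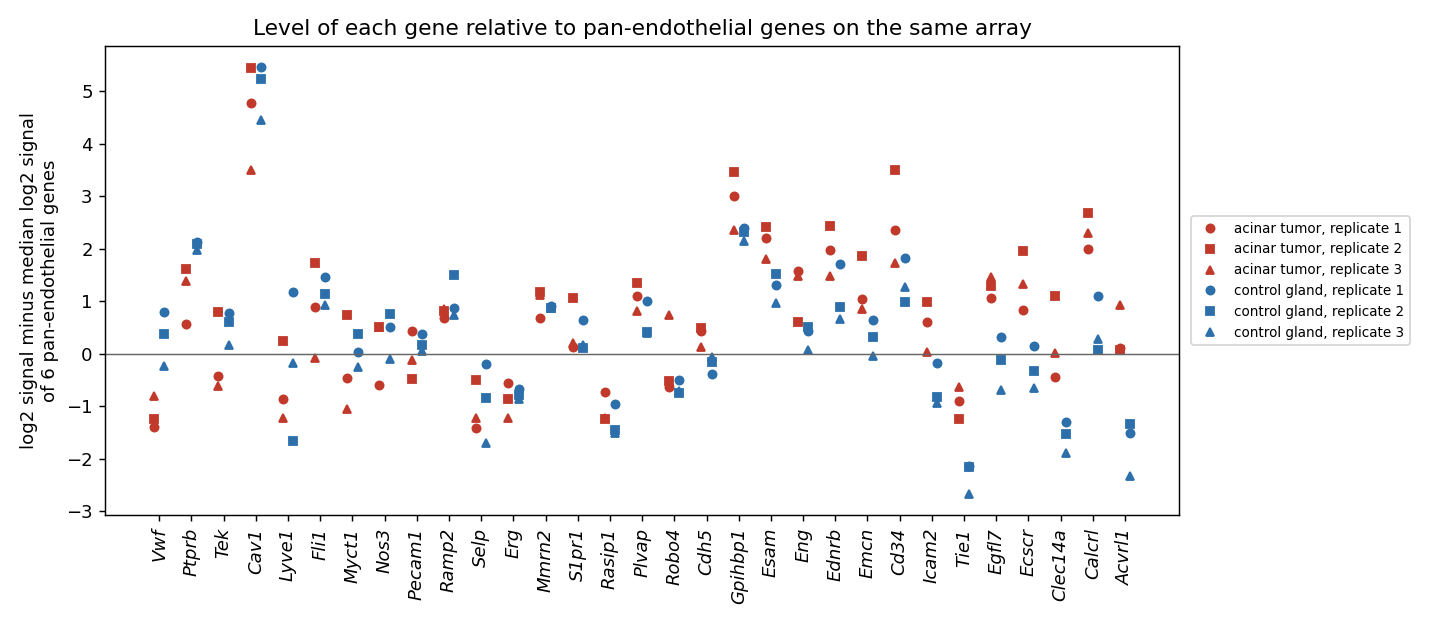
Log2 signal of each member minus the median log2 signal of 6 pan-endothelial genes on the same array, with 3 acinar tumors in red to the left of 3 control glands in blue, ordered by the difference between the groups. *Vwf* at the left had a relative change of −1.46 and *Acvrl1* at the right of 2.09, and most genes between them overlap.

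Genes that act with these members were read from further lists. Vascular growth factors and their receptors gave 16 tested genes, of which 10 fell, 1 rose and 5 did not pass, with a median of −1.24. Among the lower ones were the co-receptor *Nrp1*, with 964, 900.3 and 639 in tumors, against 5739, 6749.8 and 5575 in control glands (log2 fold change −2.87, standard error 0.24, adjusted p = 0.000319), the main VEGF receptor *Kdr*, at −2.13 (adjusted p = 0.00167), the endothelial growth factor *Vegfa*, at −1.75 (adjusted p = 0.00121), and *Bmp6*. *Bmp6* had 52.8, 12.5 and 37.2 in tumors, against 349, 404 and 369.6 in control glands (adjusted p = 0.000159), so that it reached the filter through the control glands alone and could only have been lower. *Apln*, the ligand that tip cells make, was higher, with 718, 398 and 737 in tumors, against 198, 284 and 255 in control glands (log2 fold change 1.29, standard error 0.30, adjusted p = 0.0166), whereas its receptor *Aplnr* was lower, at −1.66 (adjusted p = 0.00438). *Pgf*, placental growth factor, had 405, 319 and 463 in tumors, against 175, 66.6 and 254 in control glands, which did not pass at 1.45 (adjusted p = 0.0522). Of the Tie2 ligands, *Angpt1* stood at −0.44 (adjusted p = 0.299) and *Angpt2* at −0.59 (adjusted p = 0.194).

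Among 16 endothelial transcription factors other than *Erg* and *Fli1*, 9 fell, 3 rose and 4 did not pass, with a median of −1.70. *Sox17*, a factor of arterial endothelium, had 471, 144 and 147 in tumors, against 1896, 1785 and 2952 in control glands (log2 fold change −3.33, standard error 0.49, adjusted p = 0.00266). *Klf2*, which responds to blood flow, was lower at −2.93 (adjusted p = 0.00115) and *Sox7* at −2.44 (adjusted p = 0.0114). Higher were *Foxc1*, at 2.57 (adjusted p = 0.0106), *Gata2*, at 1.41 (adjusted p = 0.00628), and *Ets2*, at 0.86 (adjusted p = 0.0374). Factors of this list, lower as well as higher, can also be made outside vessels, and the part of other cells was not tested. *Lmo2*, a partner of Tal1 in blood and endothelium, had 1844, 1349.8 and 699 in tumors, against 1486, 1101 and 1205 in control glands and did not pass, at −0.06 (adjusted p = 0.912). Of 10 genes of arteries, veins and vascular Notch signaling, *Sox17* among them, 3 were lower and 7 did not pass. *Nr2f2*, the factor of venous identity that stroma also uses, was lower at −1.10 (adjusted p = 0.0375), while *Efnb2* and *Ephb4*, the arterial and venous pair, had −0.20 (adjusted p = 0.515) and 0.26 (adjusted p = 0.598).

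Markers of other cells also differed between these samples, and no tested gene of their lists was at 0 on any array. Of 11 genes of mural cells, the pericytes that wrap capillaries, 4 were lower and 7 did not pass, with a median of −1.34. *Cspg4*, the pericyte proteoglycan, was lower at −1.52 (adjusted p = 0.00685) and *Pdgfrb* at −1.61 (adjusted p = 0.0345), whereas *Rgs5* had 4292, 2963 and 1740.1 in tumors, against 4161, 8388 and 10382 in control glands and did not pass, at −1.34 (adjusted p = 0.0529), and *Kcnj8* had 0.15 (adjusted p = 0.774). The summed signal of the mural list was 6178 to 12229.9 in tumors and 10588 to 20766 in control glands, and that of the 31 endothelial genes was 7378 to 20095 in tumors and 58367 to 62312 in control glands. *Cav1*, which adipocytes also make, alone gave 1313 to 6582.5 of the endothelial signal in tumors and 23528 to 28732 in control glands. Bright genes weigh most in such sums, so their sizes cannot be compared between lists. All 14 adipocyte genes tested and all 13 genes of fibroblasts and matrix were lower, with medians of −4.97 and −3.28. Proliferation genes rose in 9 of 9 cases, with a median of 3.66, and none of 8 skeletal muscle genes passed, with a median of −3.60. In these lists *Aqp7* of adipocytes and *Bub1* of proliferation reached the filter through 1 group alone, the control glands for *Aqp7* and the tumors for *Bub1*. The summed signals were 8112 to 24863 in tumors and 234691 to 312560.0 in control glands for adipocytes, and 8862 to 30238 in tumors and 88339.7 to 118636 in control glands for fibroblasts. Of 16 pan-epithelial genes 14 were higher and 2 did not pass, with a median of 2.35 and sums of 89776 to 113997 in tumors and 12657 to 29129 in control glands. The part of a changed share of fat, stroma and epithelium in the values of *Cav1*, *Cd34*, *Gpihbp1* and the rest was not tested.

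Some members are shared with blood cells. Of 10 hematopoietic genes 5 were lower and 5 did not pass, with a median of −1.83 and sums of 8742 to 11077 in tumors and 12614 to 34653 in control glands. *Lcp1* went the other way, with 3327, 4540 and 6350.5 in tumors, against 3270, 1856.5 and 1801 in control glands. It did not pass, at 1.04 (adjusted p = 0.0505). Furthest from passing were *Tyrobp*, at −0.32 (adjusted p = 0.609), and *Vav1*, at −0.34 (adjusted p = 0.403). *Ptprc*, the leukocyte antigen CD45, had 863, 1146 and 558 in tumors, against 8678, 1872 and 3698 in control glands, so that control replicate 1 stood above the other control glands (log2 fold change −2.25, standard error 0.55, adjusted p = 0.0193). Of 10 macrophage genes 3 were lower, among them *Cd163*, at −4.09 (adjusted p = 0.00103), and *Mrc1*, at −3.24 (adjusted p = 0.0212), which mark the tissue macrophages that can carry *Lyve1*, and their sums were 8280.5 to 13896 in tumors and 19372 to 31249 in control glands. The complement genes *C1qa* and *C1qb* had −0.47 (adjusted p = 0.445) and −0.25 (adjusted p = 0.584). Of 6 platelet genes tested, *Pf4* and *Ppbp* were lower, at −1.99 (adjusted p = 0.0164) and −1.82 (adjusted p = 0.00466), the second of which reached the filter through the control glands alone and could only have been lower, and 4 did not pass, such as *Itga2b*, at −0.11 (adjusted p = 0.763), with sums of 726 to 1501 in tumors and 2613 to 2827 in control glands. The red cell genes *Hbb-b2* and *Alas2* were lower too, at −1.54 (adjusted p = 0.0218) and −1.82 (adjusted p = 0.0331). The part of blood cells in the values of *Pecam1*, *Vwf*, *Selp*, *Fli1* and *Lyve1* was not tested.

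**Figure D4:**
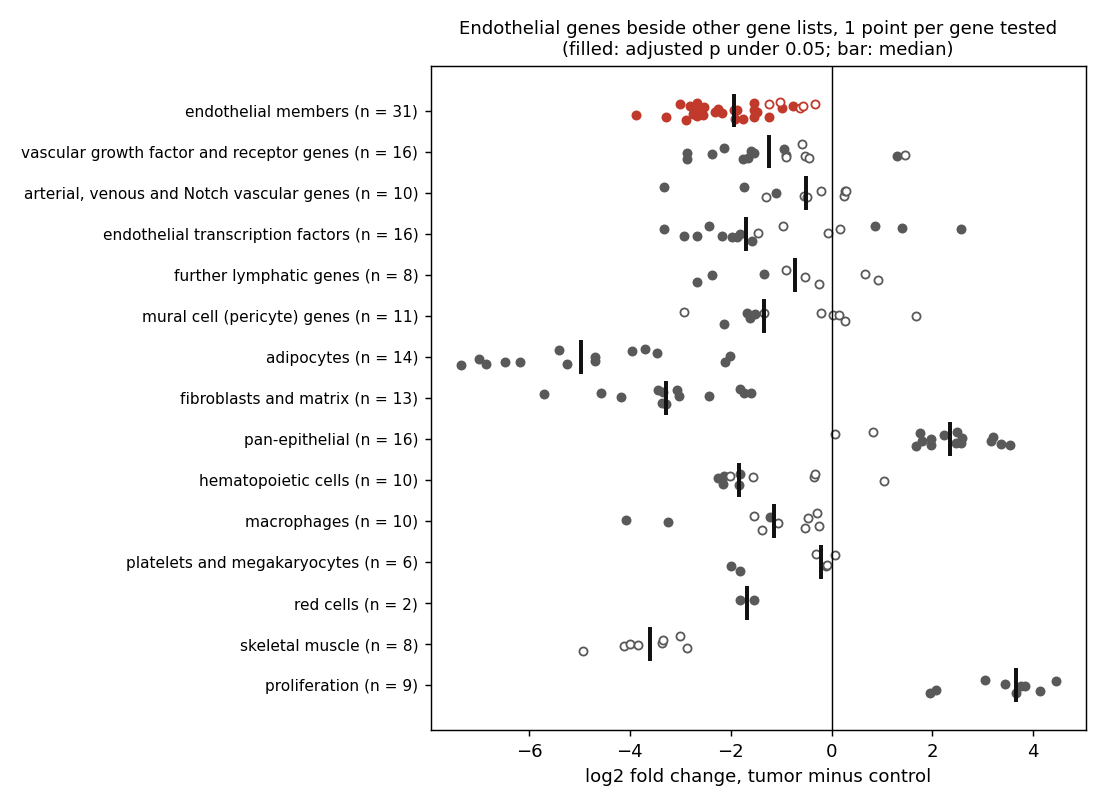
The endothelial genes in red at the top and 14 other gene lists in gray, with 1 point per gene at its log2 fold change, tumor minus control, filled where the adjusted p is under 0.05, and the median of each list as a bar. The endothelial median of −1.94 lies between those of mural cells, −1.34, and of fibroblasts, −3.28, and some genes stand in more than 1 list.

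The arrays within each group were not alike. Over the 31 members, tumor replicate 1 was the highest tumor for 22 genes and tumor replicate 3 the lowest for 21. Control replicate 3 was the highest control gland for 17 genes. The same counts were not made over all genes tested. Among the tumors, replicate 1 also had the highest median signal of all probe sets (138) and replicate 3 the lowest (124). The median log2 signal of the 31 members was 8.47, 7.88 and 7.59 in tumors and 9.90, 9.89 and 10.03 in control glands. Tumor replicate 1 was also the highest tumor for 11 of the 13 fibroblast and matrix genes (tumor replicate 2 for *Dpt* and *Dcn*), for 8 of 8 skeletal muscle genes and for 7 of 14 adipocyte genes. Examples are *Col1a1*, with 786, 70.9 and 17.6 in the 3 tumors and 889.6, 2337 and 1720.4 in control glands, and the muscle actin *Acta1*, with 12849.8, 469.9 and 198 in tumors and 2498, 29065 and 17955 in control glands, and their part in its endothelial values was not tested. Without tumor replicate 1 the median log2 fold change of the members was −2.29, and 26 members were lower. Without tumor replicate 3 it was −1.92, and 21 members were lower. The calls of *Icam2*, *Eng* and *Egfl7* were lost when any 1 array other than tumor replicate 1 was left out. That of *Cdh5* was lost without tumor replicate 2, those of *Emcn* and *Gpihbp1* without control replicate 3, that of *Esam* without tumor replicate 2, control replicate 2 or control replicate 3, and that of *Ednrb* without tumor replicate 2, control replicate 1 or control replicate 3.

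Several probe sets allowed a second reading of the same transcripts. Of 61 probe sets for the 34 genes, 49 reached the filter, all with negative log2 fold changes, and 40 were lower in a fit over all 22492 named probe sets, in which 15.2% were lower. For 9 of the 11 genes with several probe sets every one was lower, and for *Acvrl1* and *Ednrb* the calls differed between probe sets. No gene had probe sets called in opposite directions. Of the 26 lower genes, 15 passed in every one of the 16 alternatives fitted with limma in which they could be tested. These were *Erg*, *Fli1*, *Mmrn2*, *Myct1*, *Nos3*, *Pecam1*, *Plvap*, *Ptprb*, *Ramp2*, *Rasip1*, *Robo4*, *S1pr1*, *Selp*, *Tek* and *Vwf*. Among them *Selp* and *Vwf* reached the filter through the control glands alone and could only have been lower. They were also not tested in the fits that left out a control gland.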

How the data were processed

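RNA of 3 tumors and 3 control glands was hybridized to Affymetrix M430 2.0 arrays. Deposited values are intensity signals that the authors computed by MAS 5.0 (version not given in the sources used here) scaling every array to a target signal of 500. This makes signals relative to the array's total, and array number limits the precision. Median signals were 124 to 138 in tumors and 133 to 171 in control glands, and 54.3% to 56.6% of probe sets in tumors and 55.8% to 61.5% in control glands reached 100.

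Probe sets were named from the platform annotation (34945 with 1 symbol, 932 with several, 9160 unnamed here; 64 controls left out). Signals below 50 were raised to 50 and log2 was taken. A probe set had to reach 100 on 3 or more of the 6 arrays. The 2-sided comparison used limma 3.58.1 (lmFit, eBayes) under R 4.3.3, and the steps were tested on simulated data. Calls had an adjusted p under 0.05.

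Members and lists were chosen with earlier results of these data known. The rule named all members, with each array's values for those not called, the 10 largest changes, lymphatic genes and 6 reference genes. From the other lists up to 4 called genes per direction and up to 2 furthest from passing were to be named. *Vegfa*, *Aplnr*, *Pgf*, *Efnb2*, *Ephb4*, *Pdpn*, *Rgs5*, *Lpl*, *C1qa*, *Itga2b*, *Dcn*, *Aqp7*, *Acta1*, *Lcp1*, *Ets1* and *Elk3* were added after their values were seen. Alternatives changed the floor, the log scale, array scaling, the filter, the probe sets, the test and the samples, and used the replicate number as a block.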

Additional observations from a re-analysis of the deposited data

How the results depend on the processing

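Of 18 alternatives, 17 gave fold changes of members (14 to 17 per member), and no member tested under the main settings changed sign in them. Of those 513 member values, 432 stayed on the same side of the threshold, 79 no longer passed and 2 newly passed (*Tie1* without tumor replicate 1 and *Acvrl1* on its second probe set). The count of lower members, 26 of 31, was 15 of 34 with no filter on low signals, where 1564 of 18193 genes tested were lower. It was 17 at the methods' threshold of 4.5 for the statistic and 2 for the ratio of means, and 2 (*Cav1* and *Tek*) in the methods' t-test after Benjamini-Hochberg adjustment. Over all genes, the methods' threshold gave 685 higher and 920 lower. The t-test with Benjamini-Hochberg adjustment, which the methods do not name, gave 67 and 73. Both were run here on 1 probe set per gene under the main filter, whereas the authors kept probe sets by detection calls. With each array left out in turn, 15 to 26 members were lower, 1241 to 1545 genes were higher and 1151 to 2012 lower, and the members' median ran from −2.29 to −1.72. *Vwf* and *Selp* failed the filter when any 1 of the 3 control glands was left out, because only 2 control arrays then carried their signal, and were not tested there. Without control replicate 3 *Esam*, *Emcn*, *Gpihbp1*, *Lyve1*, *Ednrb*, *Eng*, *Egfl7*, *Icam2* and *Ecscr* were also lost. Equal array medians moved the median of all genes by 0.24 on the log2 scale and gave 3007 higher and 1673 lower genes (64.3% of calls higher, against 49.4%), with 22 members lower.

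Whether the replicate numbers pair the samples could not be told. Deviations of same-numbered tumors and control glands correlated at −0.22, 0.02 and 0.04 over 12518 genes, and those of unlike numbers at −0.16 to 0.13. With 3 arrays per group these values show no pairing and cannot exclude one. With the replicate number as a block 23 members were lower (*Eng*, *Icam2* and *Ecscr* were lost), and 1630 genes were higher and 1860 lower.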
